A study of Homo sapiens with 6 samples.

Results

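The genes described here encode the collagen chains, chosen as every row of the count table whose symbol reads COL, digits, A, digits. They were 44 of 37887 rows. RNA sequencing (RNA-seq) was performed on BT-549, an established human triple-negative breast cancer (TNBC) cell line with mesenchymal features. The study concerns PBRM1, a bromodomain subunit of the PBAF chromatin remodelling complex, and the comparison asked how the transcriptome changed when PBRM1 was silenced. The 3 control libraries (shCTL) came from cells labelled as carrying a control shRNA and treated with the vehicle DMSO. The 3 silenced libraries (shPBRM1) came from cells labelled shPBRM1 and treated with doxycycline (DOX), which the study used where silencing was inducible. Whether the PBRM1 hairpin was in an inducible vector is not given in the sources used here. The arms thus differed in hairpin and in DOX, so an effect of DOX itself and an effect of lower PBRM1 cannot be told apart. The replicates were triplicate cultures of 1 cell line and the labels name no further PBRM1 hairpin, so p-values measure the spread between those cultures.

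Collagens are secreted or membrane proteins in which 3 chains wind into a triple helix. Fibrillar collagens (types I, II, III, V, XI, XXIV and XXVII) form the cable-like fibrils of connective tissue. Type IV collagen forms the sheet-like network of basement membranes. Fibril-associated collagens with interrupted triple helices (FACIT) decorate fibrils, type VI collagen forms beaded filaments next to basement membranes, and multiplexins (types XV and XVIII) are proteoglycans that sit between basement membrane and fibrils. In breast tumors most collagen is made by fibroblasts, while mesenchymal-type cancer cells in culture make many of the same chains.

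The PBRM1 gene itself was measured at 157, 157 and 161 CPM (counts scaled to a common library size and normalized by TMM) in the shCTL libraries and at 43.3, 40.9 and 41.7 CPM in the shPBRM1 libraries. This was a log2 fold change of -1.91 (SE 0.027; edgeR quasi-likelihood F-test, p adjusted by Benjamini-Hochberg for 15450 genes, adjusted p = 9.98e-23). Each library held 36429395 to 65096297 counts. The receptor genes that define the triple-negative label were low for ESR1 (0 to 2 counts) and PGR (0 to 12 counts), and ERBB2 stood at 51.3 and 50.02 CPM in shCTL and shPBRM1. The 4 mesenchymal markers were expressed in both groups, and 2 rose and 2 fell. VIM (621 to 770 CPM) and CDH2 (252 to 366 CPM) rose. FN1 (554 to 221 CPM) and ZEB1 (197 to 135 CPM) fell. Of 5 fibroblast and mural markers, 4 (PDGFRB, PDGFRA, FAP and ACTA2) fell and RGS5 rose, with a summed level of 17.6 to 19.7 CPM in shCTL and 9.83 to 11.4 CPM in shPBRM1. ACTA2, smooth muscle actin, went from 9.17 to 1.15 CPM. Of 3 endothelial markers KDR rose (0.353 to 1.07 CPM), and CDH5 had at most 5 counts and PECAM1 at most 18. The leukocyte marker CD3E had no count, CD68 at most 11, and PTPRC fell from 0.797 to 0.132 CPM. Of 4 epithelial markers, KRT8 (2.80 to 23.9 CPM) and KRT18 (4.54 to 51.5 CPM) rose, CDH1 fell (5.0 to 1.51 CPM) and EPCAM had at most 8 counts. The part of these markers in the collagen results was not tested. In bulk RNA, fewer cells of a kind and less RNA per cell cannot be told apart.

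Of the 44 collagen genes, 33 had enough counts for a test and 11 did not. Silencing PBRM1 was associated with a fall in 16 of the 33 tested genes (48.5%) and a rise in 9 (27.3%) at an adjusted p under 0.05, and 8 did not pass. Over all 15450 genes tested, 33.2% fell and 31.5% rose by the same rule. When a fold change above 2 was also required, 11 collagen genes fell (33.3%) and 2 rose (6.06%), against 9.68% and 2.87% of all genes. These 2 counts depend on the fit: a test against a fold of 2 itself (edgeR's glmTreat) gave 6 lower and 1 higher, and the higher count was also 1 with the replicate block, with library size only, with a filter at an average of 50 counts, and without shCTL replicate 2, shCTL replicate 3 or shPBRM1 replicate 1. The median log2 fold change was -0.44 for the tested collagen genes and -0.0080 for all tested genes. At 1000 or more counts on average, a limit set after the values were seen, there were 14 collagen genes, of which 10 fell and 4 rose, with a median log2 fold change of -1.01. Genes with many counts pass a test more easily. The share of all genes called at that depth was not taken, so these values have no matched background. Of the 33 tested genes, 31 were past the low-count filter in every library of both groups. COL19A1 was past it only in shCTL, where it was higher, so its fall is in part set by the filter. This gene is among the 16 and the 11 counted as lower above. COL11A2 was past the filter in 3 of 6 libraries.

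**Figure D1:**
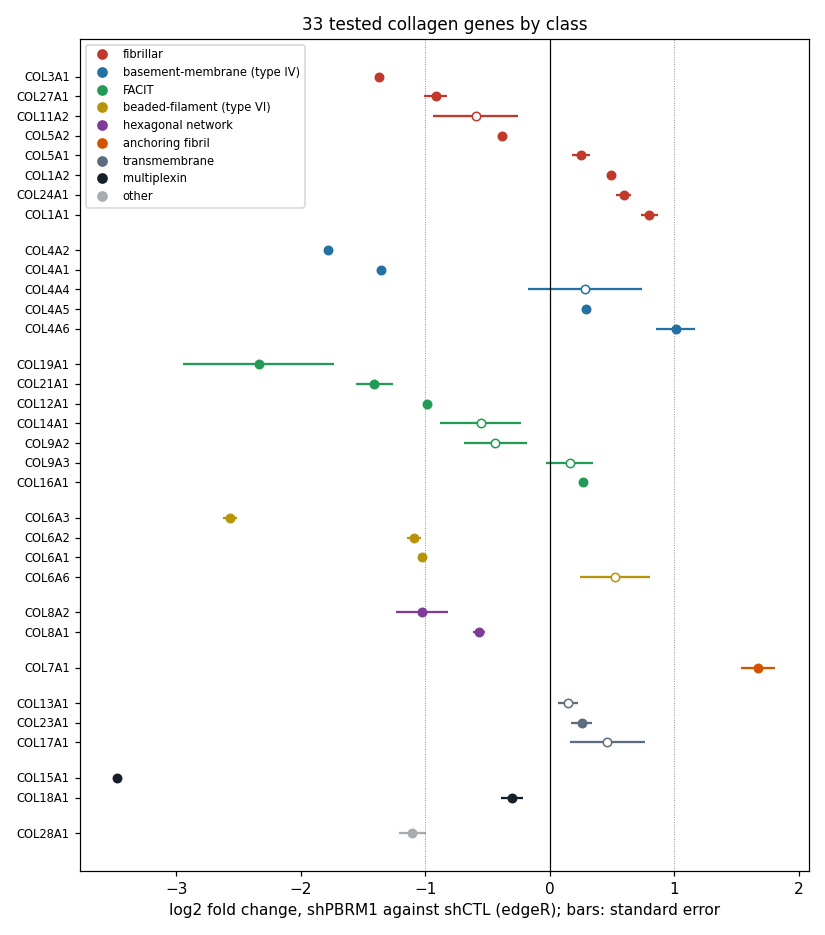
Log2 fold change of shPBRM1 against shCTL (x axis) for the 33 tested collagen genes (y axis), coloured by structural class; bars are the standard error of the difference between 3 and 3 libraries, filled circles passed an adjusted p under 0.05, and dotted lines mark a fold change of 2. COL15A1 lies farthest to the left at -3.48 and COL7A1 farthest to the right at 1.68, and the fibrillar and type IV genes lie on both sides of 0.

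The summed level of the 44 collagen mRNAs was 14047 ± 196 CPM (SD, n = 3) in shCTL and 10464 ± 377 CPM in shPBRM1, with no overlap between the groups. Collagen mRNA took 1.43% of all counts in shCTL and 1.03% in shPBRM1. COL15A1 alone carried most of this net difference. Without it the sum was 11175 ± 147 CPM in shCTL and 10205 ± 370 CPM in shPBRM1, 0.913 of the control level. That sum nets large falls, such as COL4A2 (1204 to 350 CPM), against large rises, such as COL1A2 (2387 to 3364 CPM). To compare levels between genes, CPM was divided by exon length in kilobases (kb). On this per-kb scale the fibrillar genes made up 51.6% ± 0.10 of collagen mRNA in shCTL and 81.6% ± 0.51 in shPBRM1. Their own summed per-kb level moved less, from 788 ± 12.8 to 856 ± 34.3. The multiplexins went from 28.9% ± 0.15 to 4.5% ± 0.030, type IV from 9.33% ± 0.082 to 6.27% ± 0.18, the FACIT genes from 5.87% ± 0.21 to 4.41% ± 0.26 and type VI from 3.92% ± 0.093 to 2.66% ± 0.053.

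**Figure D2:**
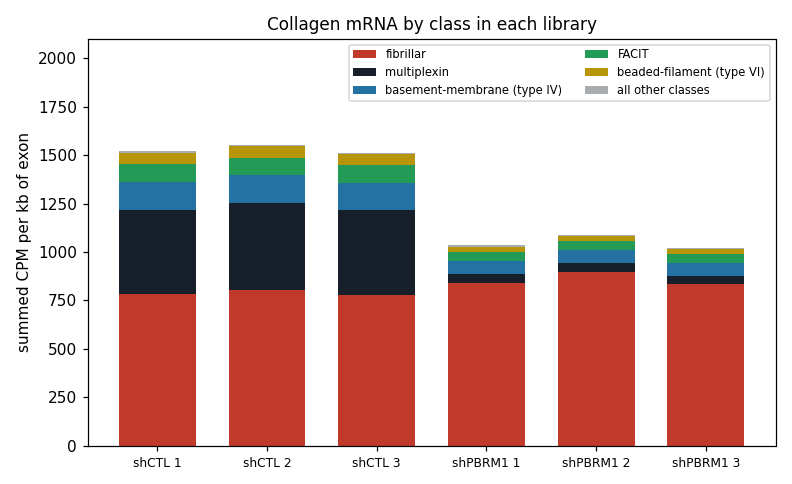
Summed CPM per kb of exon (y axis) of the collagen genes in each of the 6 libraries (x axis), stacked by structural class. The multiplexin block (COL15A1 and COL18A1) is 437 to 452 high in the shCTL libraries and 45.7 to 49.1 high in the shPBRM1 libraries, while the fibrillar block is of similar height in all 6.

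The order of the per-kb levels also changed. In shCTL the highest genes were COL15A1 (432 CPM per kb), COL5A2 (252), COL1A2 (214), COL1A1 (113), COL3A1 (105) and COL5A1 (103). In shPBRM1 they were COL1A2 (302 CPM per kb), COL1A1 (198), COL5A2 (192), COL5A1 (122), COL12A1 (44.0) and COL3A1 (40.5), with COL15A1 at rank 7 (38.8). These levels and the per-kb ratios below rest on the exon length chosen for each gene, whereas the fold changes below do not.

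The promoters of 4 genes are shown, chosen for the largest fall (COL15A1), the largest rise (COL7A1) and the head-to-head gene pairs of type IV collagen (COL4A1 and COL4A6). Each runs from 250 bases before to 30 after the RefSeq start (assembly GRCh38.p14) on the gene's own strand, 5′ to 3′. Capitals mark the letters of 4 motifs looked for on both strands: the TATA box (TATAAA), the CCAAT box (CCAAT), the GC box (GGGCGG) and the AP-1 site (TGANTCA). The windows are chr9:98943657-98943936 on the plus strand for COL15A1, chr3:48595300-48595579 on the minus strand for COL7A1, chr13:110307128-110307407 on the minus strand for COL4A1 and chrX:108439429-108439708 on the minus strand for COL4A6.
COL15A1: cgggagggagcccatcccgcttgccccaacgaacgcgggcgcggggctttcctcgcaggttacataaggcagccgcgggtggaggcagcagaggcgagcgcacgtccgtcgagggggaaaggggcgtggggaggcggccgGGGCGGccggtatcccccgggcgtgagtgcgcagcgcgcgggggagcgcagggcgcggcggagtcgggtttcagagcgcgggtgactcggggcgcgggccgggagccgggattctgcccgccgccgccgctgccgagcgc
COL7A1: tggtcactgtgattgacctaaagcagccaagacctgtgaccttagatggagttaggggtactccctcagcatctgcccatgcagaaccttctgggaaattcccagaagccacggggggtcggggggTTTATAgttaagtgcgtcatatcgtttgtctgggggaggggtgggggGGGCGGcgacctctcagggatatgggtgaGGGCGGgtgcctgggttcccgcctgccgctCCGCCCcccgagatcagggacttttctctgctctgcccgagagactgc
COL4A1: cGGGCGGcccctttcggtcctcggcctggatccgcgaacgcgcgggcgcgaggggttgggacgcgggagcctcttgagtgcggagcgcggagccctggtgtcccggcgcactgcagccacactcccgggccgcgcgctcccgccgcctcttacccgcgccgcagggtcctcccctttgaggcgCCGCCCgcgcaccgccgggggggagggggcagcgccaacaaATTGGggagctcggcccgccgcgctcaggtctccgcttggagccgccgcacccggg
COL4A6: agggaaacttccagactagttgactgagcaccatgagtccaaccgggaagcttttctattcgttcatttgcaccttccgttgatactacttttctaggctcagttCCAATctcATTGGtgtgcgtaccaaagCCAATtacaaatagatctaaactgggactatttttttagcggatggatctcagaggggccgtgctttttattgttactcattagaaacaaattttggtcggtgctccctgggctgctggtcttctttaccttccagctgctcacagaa
The COL15A1 window held 1 GC box at -110 from the start. The COL7A1 window held 3 GC boxes (-77, -48 and -18) and the letters of a TATA box on the opposite strand at -124. In COL4A1 a CCAAT box in reverse stood at -26 and GC boxes at -249 and -67. COL4A6 held 3 CCAAT boxes (-145, -137 and -118) and no GC box. This window is that of the first COL4A6 start listed. The window of another listed start (chrX:108438393-108438672) held 1 GC box and no CCAAT box, with 49.3% GC. No AP-1 letters were found in the 4 windows. Among 35116 RefSeq promoters of the same length, 11.2% held the TATA letters, 33.6% the CCAAT letters, 44.1% the GC box and 7.35% the AP-1 letters. The GC content was 77.1% for COL15A1, 77.5% for COL4A1, 60.4% for COL7A1 and 44.3% for COL4A6, beside a median of 58.2% over all promoters. These matches describe the letters in the windows and say nothing of which factors bind them.

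COL15A1 (chr9:98943179-99070792, plus strand) encodes the single chain of type XV collagen, whose C-terminal fragment is related to endostatin. Its level was 2841, 2931 and 2843 CPM in the shCTL libraries and 259, 266 and 249.7 CPM in the shPBRM1 libraries. All shPBRM1 values lay far below all control values. The mean went from 2872 ± 51.2 to 258 ± 8.33 CPM (SD, n = 3), which is 8.99% of the control level or 11.1-fold lower. The log2 fold change was -3.48 (SE 0.031; edgeR, adjusted p = 2.93e-27), and it rested on 10363 to 143398 counts per library. COL18A1, the other multiplexin and the source of endostatin, fell from 88.4 ± 7.14 to 71.7 ± 5.10 CPM (log2 fold change -0.31, SE 0.089; edgeR, adjusted p = 1.33e-05). On the per-kb scale the ratio of COL15A1 to COL18A1 was 41.8 ± 2.75 in shCTL and 4.63 ± 0.24 in shPBRM1.

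The basement-membrane collagens split by gene pair. Type IV collagen is assembled from 6 chains whose genes lie head to head in 3 pairs. COL4A1 (chr13:110148963-110307233, minus strand) and COL4A2 (chr13:110305812-110513209, plus strand) encode the chains of the network found in nearly all basement membranes. COL4A1 was measured at 902, 904 and 893 CPM in shCTL and at 355, 359 and 339.6 CPM in shPBRM1. COL4A2 stood at 1196, 1230 and 1186 CPM in shCTL and at 343, 356 and 351 CPM in shPBRM1. Both fell, with no overlap between the groups. The fold change was -1.36 on the log2 scale for COL4A1 (SE 0.025; edgeR, adjusted p = 7.65e-19) and -1.78 for COL4A2 (SE 0.022; edgeR, adjusted p = 2.41e-21), leaving 39.0% and 29.05% of the control level. Their RefSeq starts are 127 bases apart, and the COL4A2 start falls at base 124 of the COL4A1 window printed above. COL4A2 fell further than COL4A1, so that the per-kb ratio of COL4A1 to COL4A2 moved from 0.979 ± 0.014 to 1.32 ± 0.046.

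COL4A5 (chrX:108439844-108697545, plus strand) and COL4A6 (chrX:108155607-108439497, minus strand) encode chains that occur together in a more restricted basement-membrane network, and mutations of COL4A5 cause Alport syndrome. COL4A5 was at 228, 216 and 218 CPM in shCTL and at 279, 266 and 265 CPM in shPBRM1. COL4A6, expressed at a much lower level, was at 4.39, 3.62 and 3.79 CPM in shCTL and at 9.28, 7.48 and 6.86 CPM in shPBRM1. Both rose, and neither pair of groups overlapped. The log2 fold change was 0.29 for COL4A5 (SE 0.035; edgeR, adjusted p = 5.21e-07) and 1.01 for COL4A6 (SE 0.15; edgeR, adjusted p = 1.32e-07). The fitted COL4A6 change of 1.01 is just past a fold of 2 (the ratio of mean CPM was 2.001). With the replicate number as a block the fitted log2 fold change was 0.99. The gene is thus past a fold of 2 in one fit and not in the other. The first listed starts of this pair are 380 bases apart. Through these opposite changes the per-kb ratio of COL4A5 to COL4A1 went from 0.304 ± 0.0091 to 0.956 ± 0.030.

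The pair on chromosome 2, COL4A4 and COL4A3, encodes chains of the glomerular basement membrane and was nearly silent. COL4A4 had 17, 15 and 37 counts in shCTL and 41, 32 and 24 in shPBRM1, with overlapping groups (log2 fold change 0.28; edgeR, adjusted p = 0.525). COL4A3 had 2 to 12 counts per library and was not tested. Within type IV, 2 of 5 tested genes fell (40%, all genes 33.2%), 2 rose (40%, all genes 31.5%) and 1 did not pass. The median log2 fold change of 0.28 is that of the low COL4A4, and over genes averaging 50 or more counts it was -0.54. By summed level the class went from 2329 ± 26.3 to 980 ± 14.6 CPM.

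**Figure D3:**
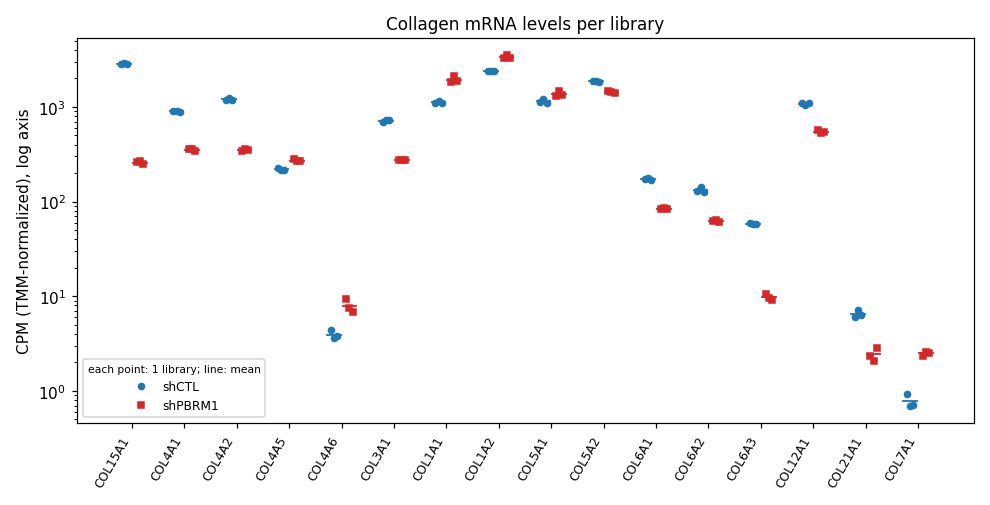
TMM-normalized CPM (y axis, log scale) of 16 collagen genes (x axis) in the 3 shCTL (circles) and 3 shPBRM1 (squares) libraries; horizontal lines are group means. All 16 genes shown passed an adjusted p under 0.05, so that none has overlapping groups is in part set by this choice. COL15A1, COL4A1, COL4A2, COL3A1, COL5A2, COL6A1, COL6A2, COL6A3, COL12A1 and COL21A1 are lower in shPBRM1. COL4A5, COL4A6, COL1A1, COL1A2, COL5A1 and COL7A1 are higher.

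The fibrillar collagens also moved in both directions. Type I collagen, the main protein of most fibrils, is a heterotrimer of the COL1A1 and COL1A2 chains. COL1A1 (chr17:50183289-50201632, minus strand) was at 1089, 1156 and 1098 CPM in shCTL and at 1835, 2103 and 1882 CPM in shPBRM1. COL1A2 (chr7:94394561-94431232, plus strand) was at 2389, 2405 and 2367 CPM in shCTL and at 3322, 3501 and 3269 CPM in shPBRM1. Both type I chains rose, to 174% and 141% of the shCTL level. On the log2 scale the fold change was 0.80 for COL1A1 (SE 0.066; edgeR, adjusted p = 8.29e-14) and 0.50 for COL1A2 (SE 0.031; edgeR, adjusted p = 8.58e-13). The per-kb ratio of COL1A1 to COL1A2 was 0.530 ± 0.014 in shCTL and 0.655 ± 0.027 in shPBRM1.

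COL3A1 (chr2:188974320-189012746, plus strand), the chain of type III collagen, which co-assembles with type I in soft tissue, went the other way. It was at 699, 726 and 722 CPM in shCTL and at 278, 273 and 277 CPM in shPBRM1. The 3 shPBRM1 values were close to each other and below every control value, at 38.6% of the shCTL mean (log2 fold change -1.38, SE 0.019; edgeR, adjusted p = 7.46e-19). COL3A1 and COL1A1 had similar per-kb levels in shCTL, with a ratio of 0.927 ± 0.022, and this ratio was 0.206 ± 0.017 in shPBRM1. In CPM the shCTL means were 716 for COL3A1 and 1114 for COL1A1, so the similarity rests on the exon lengths used.

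Type V collagen sets fibril diameter by nucleating type I fibrils, and its main form joins COL5A1 and COL5A2 chains. COL5A1 was at 1130, 1203 and 1112 CPM in shCTL and at 1290, 1485 and 1326 CPM in shPBRM1. COL5A2 (chr2:189031896-189225312, minus strand) was at 1877, 1894 and 1854 CPM in shCTL and at 1466, 1438 and 1399 CPM in shPBRM1. COL5A1 was thus higher and COL5A2 lower in every shPBRM1 library. The log2 fold change was 0.25 for COL5A1 (SE 0.071; edgeR, adjusted p = 3.01e-05) and -0.39 for COL5A2 (SE 0.022; edgeR, adjusted p = 2.40e-10). The per-kb ratio of COL5A1 to COL5A2 went from 0.408 ± 0.013 to 0.635 ± 0.051. COL5A2 and COL3A1 are neighbours with their 3′ ends 19.1 kb apart, and both fell.

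Of the minor fibrillar genes, COL24A1 rose from 6.09 ± 0.37 to 9.16 ± 0.45 CPM (log2 fold change 0.59; edgeR, adjusted p = 5.31e-06). COL27A1, known from cartilage, fell from 6.91 ± 0.75 to 3.64 ± 0.043 CPM (log2 fold change -0.92; edgeR, adjusted p = 1.56e-07). COL11A2 had 4 to 16 counts per library and did not pass (log2 fold change -0.60; edgeR, adjusted p = 0.305). In all, 4 of 8 tested fibrillar genes rose (50%, all genes 31.5%), 3 fell (37.5%, all genes 33.2%) and 1 did not pass. Among the fibrillar genes only COL3A1 was past a fold of 2. The median log2 fold change was -0.07, and 0.24 over genes averaging 50 or more counts. By summed level the class went from 7253 ± 124 to 8395 ± 363 CPM.

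**Figure D4:**
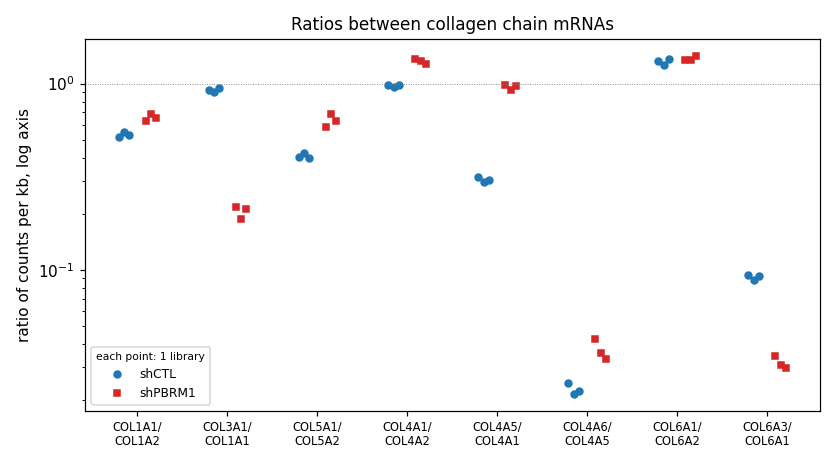
Ratio of 2 collagen mRNAs per kb of exon (y axis, log scale) for 8 pairs of chains (x axis) in each shCTL (circles) and shPBRM1 (squares) library. The COL6A1 to COL6A2 ratio overlaps between the groups, at 1.26 to 1.35 and 1.34 to 1.41, and the other 7 ratios do not. The 8 pairs were picked, and several join chains that changed in opposite directions or by unlike amounts. The lack of overlap is in part set by this choice, and how often other gene pairs overlap was not taken.

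The main chains of the beaded-filament collagen fell together. Type VI collagen joins the COL6A1 and COL6A2 chains with a longer one, most often COL6A3. COL6A1 (chr21:45981737-46005050, plus strand) was at 172, 177 and 169 CPM in shCTL and at 83.4, 85.3 and 84.3 CPM in shPBRM1. COL6A2 (chr21:46098097-46132849, plus strand) was at 131, 142 and 126 CPM in shCTL and at 62.8, 64.0 and 60.3 CPM in shPBRM1. These neighbours, 93 kb apart, were left at 48.9% and 47.0% of the shCTL level. On the log2 scale the fold change was -1.03 for COL6A1 (SE 0.022; edgeR, adjusted p = 1.52e-17) and -1.09 for COL6A2 (SE 0.057; edgeR, adjusted p = 1.19e-16). Their ratio of 1.31 ± 0.049 in shCTL and 1.36 ± 0.040 in shPBRM1 overlapped between the groups.

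COL6A3 (chr2:237324003-237414375, minus strand) was at 59.2, 57.6 and 57.6 CPM in shCTL and at 10.5, 9.64 and 9.23 CPM in shPBRM1. It fell to 16.8% of the shCTL mean (log2 fold change -2.57, SE 0.057; edgeR, adjusted p = 1.35e-20), further than its partners. Its per-kb ratio to COL6A1, already low at 0.0918 ± 0.0028 in shCTL, was 0.0316 ± 0.0024 in shPBRM1. COL6A6, an alternative long chain, had 15 to 51 counts per library and did not pass (log2 fold change 0.52; edgeR, adjusted p = 0.163), and COL6A5 had no count. Thus 3 of the 4 tested type VI genes (75%) fell past a fold of 2, beside 9.68% of all tested genes. COL6A1 (log2 fold change -1.03) and COL6A2 (-1.09) lie close to that line. The summed level of the class went from 364 ± 12.2 to 157 ± 2.39 CPM.

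Among the FACIT genes, COL12A1 (chr6:75084326-75206051, minus strand) was by far the most expressed. It encodes type XII collagen, which binds type I fibrils. Its level was 1112, 1058 and 1088 CPM in shCTL and 570.4, 535 and 540.4 CPM in shPBRM1, with no overlap. It fell to 50.5% of the shCTL mean (log2 fold change -0.99, SE 0.035; edgeR, adjusted p = 3.01e-16), just short of a fold of 2. COL21A1 was at 6.03, 7.18 and 6.36 CPM in shCTL and at 2.37, 2.08 and 2.84 CPM in shPBRM1 (log2 fold change -1.41, SE 0.15; edgeR, adjusted p = 1.38e-09). COL19A1 had 8, 13 and 19 counts in shCTL and 7, 2 and 0 in shPBRM1 (log2 fold change -2.34, SE 0.61; edgeR, adjusted p = 4.05e-03), too few for a firm size. COL16A1, which is found near fibrillin microfibrils and fibrils, rose from 10.9 ± 0.31 to 13.2 ± 0.091 CPM (log2 fold change 0.27; edgeR, adjusted p = 2.81e-03). COL14A1 (log2 fold change -0.55; edgeR, adjusted p = 0.0546), COL9A2 (-0.44; edgeR, adjusted p = 0.208) and COL9A3 (0.16; edgeR, adjusted p = 0.569) did not pass, and their groups overlapped. Of 7 tested FACIT genes, 3 fell (42.9%, all genes 33.2%), 1 rose (14.3%, all genes 31.5%) and 3 did not pass. The falls include COL19A1, which was past the low-count filter only in shCTL, where it was higher. The share that fell is thus in part set by the filter and is not read as a result for the class.

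COL7A1 (chr3:48564073-48595267, minus strand) encodes the anchoring fibril collagen that ties the epidermal basement membrane to the dermis. It had 35, 34 and 36 counts in shCTL and 141, 101 and 160 in shPBRM1. The level rose from 0.784 ± 0.13 to 2.48 ± 0.13 CPM, 317% of a low control level (log2 fold change 1.68, SE 0.14; edgeR, adjusted p = 8.54e-08). Type VIII collagen forms hexagonal lattices, as in the cornea and vessel wall, and both of its genes fell. COL8A1 went from 5.89 ± 0.21 to 3.96 ± 0.19 CPM (log2 fold change -0.57; edgeR, adjusted p = 6.56e-05) and COL8A2 from 1.38 ± 0.31 to 0.675 ± 0.079 CPM (-1.03; edgeR, adjusted p = 1.04e-03). COL28A1, a collagen with von Willebrand factor A domains, was at 2.60, 2.90 and 3.09 CPM in shCTL and at 1.23, 1.49 and 1.32 CPM in shPBRM1, with no overlap. It fell from 2.86 ± 0.25 to 1.35 ± 0.13 CPM (log2 fold change -1.10, SE 0.11; edgeR, adjusted p = 3.88e-06).

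Of the 3 tested transmembrane collagens, 1 passed the test. COL13A1 was at 14.96 ± 0.38 CPM in shCTL and 16.6 ± 1.48 CPM in shPBRM1 (log2 fold change 0.14; edgeR, adjusted p = 0.0965). COL17A1, a hemidesmosome component, was at 1.10 ± 0.44 and 1.53 ± 0.069 CPM (0.46; edgeR, adjusted p = 0.0975). COL23A1 was at 6.56 ± 0.63 and 7.85 ± 0.25 CPM and passed (0.26; edgeR, adjusted p = 0.0234). It no longer passed with DESeq2 (adjusted p = 0.0663) or with library size only (edgeR, adjusted p = 0.0649), and its adjusted p was 0.135 without shCTL replicate 2 and 0.0514 without shPBRM1 replicate 2.

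The remaining 11 collagen genes were silent or too low to test. COL9A1, COL22A1 and COL6A5 had no count in any of the 6 libraries, which allows up to 3 counts in each, or 0.0471 to 0.0804 CPM by library depth. COL5A3 and COL20A1 never exceeded 2 counts. The other 6 were detected above 3 counts in at least 1 library but stayed under the filter. They were the cartilage chains COL2A1 (at most 8 counts), COL11A1 (at most 4) and COL10A1 (at most 18), COL4A3 (at most 12), COL25A1 (at most 4) and COL26A1 (at most 14). The highest value of any of these in a library was 0.482 CPM, for COL10A1 in shCTL replicate 1. The groups overlapped for each of the 11, and no fold change is given.

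Collagen chains are modified, folded, exported, trimmed and cross-linked by dedicated proteins, and 44 genes of this machinery and of collagen receptors were listed. Of the 40 tested, 15 fell (37.5%) and 19 rose (47.5%), beside 33.2% and 31.5% of all tested genes, and the median log2 fold change was 0.10. Past a fold of 2, 1 fell and 1 rose (2.5% each), beside 9.68% and 2.87% of all tested genes. ADAMTS3, a procollagen N-proteinase, was at 13.2, 11.7 and 15.2 CPM in shCTL and at 47.8, 41.3 and 45.4 CPM in shPBRM1 (log2 fold change 1.75, SE 0.12; edgeR, adjusted p = 1.97e-15). ITGA11, an integrin chain that binds fibrillar collagen, was low and fell from 0.727 ± 0.15 to 0.326 ± 0.042 CPM (log2 fold change -1.13; edgeR, adjusted p = 5.73e-03).

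The step counts below stand beside 33.2% lower and 31.5% higher over all tested genes, and each step holds few genes. By step, 6 of 10 genes of proline hydroxylation fell, 3 rose and 1 did not pass. The most abundant of them, P4HB, went from 679 ± 21.8 to 548 ± 8.51 CPM (log2 fold change -0.31; edgeR, adjusted p = 2.48e-07). Among the 5 genes of lysine hydroxylation and glycosylation 2 fell and 3 rose. PLOD1, the highest in shCTL, fell from 488 ± 1.38 to 376 ± 5.83 CPM (-0.38; edgeR, adjusted p = 1.06e-08), and COLGALT1, the highest in shPBRM1, rose from 481 ± 5.33 to 514 ± 9.88 CPM (0.10; edgeR, adjusted p = 0.0324). Of 6 genes listed under chaperones and export 3 fell (SERPINH1, FKBP10 and MIA2) and 3 rose (MIA3, CREB3L1 and TMEM38B). CREB3L1 and TMEM38B are themselves neither chaperones nor export proteins. SERPINH1, which encodes the collagen chaperone HSP47, fell from 1448 ± 40.2 to 893 ± 25.9 CPM (-0.70; edgeR, adjusted p = 5.11e-14). Of 7 tested genes of propeptide cleavage 6 rose and 1 fell, the most abundant, BMP1 (69.7 ± 3.87 to 60.3 ± 2.02 CPM; log2 fold change -0.21; edgeR, adjusted p = 1.55e-04). In this group TLL2 was too low to test. Among the 5 cross-linking oxidases 1 fell, 1 rose and 3 did not pass, including the most abundant, LOXL2 (2195 ± 44.7 and 2238 ± 55.5 CPM; edgeR, adjusted p = 0.438). Of 7 tested receptor genes 3 rose, 2 fell and 2 did not pass. ITGB1, the common beta chain of collagen-binding integrins, rose from 2049 ± 72.8 to 2760 ± 66.3 CPM (0.43; edgeR, adjusted p = 3.74e-11), and ITGA1, LAIR1 and GP6 were too low to test.

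**Figure D5:**
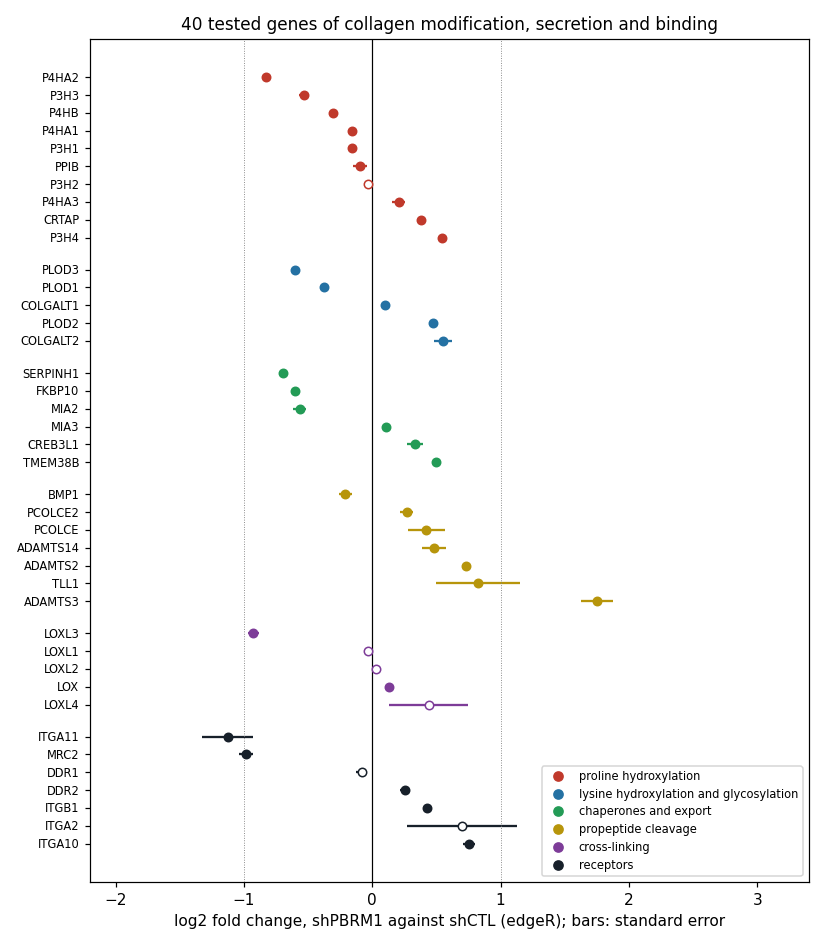
Log2 fold change of shPBRM1 against shCTL (x axis) for the 40 tested genes of collagen modification, export, cleavage, cross-linking and binding (y axis), coloured by step; bars are the standard error, filled circles passed an adjusted p under 0.05, and dotted lines mark a fold change of 2. ADAMTS3 at 1.75 and ITGA11 at -1.13 are past the lines, and 6 of the 7 propeptide cleavage genes lie to the right of 0. Over all tested genes the median is -0.0080.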

How the data were processed

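RNA-seq was performed on total RNA from 6 BT-549 cultures with a stranded mRNA kit. The authors deposited 1 table of raw read counts per gene for 37887 gene symbols. Per the labels, the processing notes name CASAVA 1.8.2, STAR 2.7.9a, featureCounts, DESeq2 1.24.0 and the build GRCh38.p7, and whether counting used strand is not given in the sources used here, so reads of overlapping genes on opposite strands (COL4A1 and COL4A2 among them) could be shared. In every library more rows had exactly 2 counts (1553 to 1710) than 1 (919 to 982), so a count may be a mate rather than a fragment. Another 14 rows carry date-like names, and 12608 rows had no count. Library totals were 36429395 to 65096297, and limits drawn from 3 counts cover counting error only.

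Counts were tested in R 4.3.3 with edgeR 4.0.16 (TMM, filterByExpr, quasi-likelihood F-test, two-sided, Benjamini-Hochberg over 15450 genes) without covariates. Calls used an adjusted p under 0.05, with and without a fold change above 2. The SE is that of the difference in mean log2 CPM (prior count 2) between the 3 and 3 libraries. DESeq2 1.42.0 and other settings were alternatives, and the code was tested on simulated data. CPM per kb used GENCODE exon unions, and gene positions are GENCODE's on GRCh38. RefSeq promoters were listed for 32 of the 44 genes.

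Replicates were compared by chi-square per degree of freedom over genes (4.66 to 22.6 within groups), so none was a copy of another. Libraries with the same number deviated together from their group means (correlation 0.734, 0.593 and 0.419 over 5622 genes, against -0.671 to 0.464 for other pairs). Taking deviations from the means of 3 libraries ties these values to each other. The value for shCTL 2 with shPBRM1 3 (0.464) was above that for shCTL 3 with shPBRM1 3 (0.419). The numbers were used as pairs in the replicate block only. This pairing is read from the data and is not settled by it.

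Named genes were all 33 tested collagen genes, with full statistics for up to 10 with the largest changes at a mean of at least 100 counts and for 11 main chains. COL4A5, COL7A1, COL18A1 and COL19A1 were given the same statistics after their values were seen. The silent ones were listed, and from the machinery list the genes past a fold of 2 and the most abundant of each step were named. The collagen genes, classes, machinery and marker lists were chosen with earlier results of these data known.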

Additional observations from a re-analysis of the deposited data

How the results depend on the processing

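The fall of 16 and rise of 9 collagen genes at any fold stayed within 1.5 times under each alternative run (DESeq2, RLE factors, library size only, no filter or an average of 50 or more counts, the replicate block, an adjusted p under 0.001, each library left out), as did the machinery counts and the type VI and FACIT medians. The PBRM1 fold change kept its direction and call in each. The count past a fold of 2 was 6 lower (11 as reported) and 1 higher (2 as reported) with glmTreat against a fold change of 2. It was 10 to 13 lower and 1 to 2 higher with 1 library left out. COL4A6 was then under a fold of 2 without shCTL replicate 2 (log2 fold change 0.95) or 3 (0.98) and without shPBRM1 replicate 1 (0.87). COL8A2 was under it without shCTL replicate 1 (-0.86) and without shPBRM1 replicate 1 (-0.92). COL12A1 was past it without shCTL replicate 2 (-1.004), without shPBRM1 replicate 1 (-1.01) and with library size only (-1.03). COL27A1 was past it without shCTL replicate 2 (-1.01). The higher count was also 1 with library size only, with an average of 50 or more counts and with the replicate block; the block changed no other call, and 25 of 25 genes were kept.

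The fibrillar median log2 fold change (-0.07) was -0.12 with library size only, -0.33 with no filter, 0.24 with an average of 50 or more counts and -0.094 to -0.021 with 1 library left out. The type IV median (0.28) was 0.17 with DESeq2, 0.24 with library size only, 0.15 with no filter, -0.54 with an average of 50 or more counts and 0.017 to 0.31 with 1 library left out. Both classes hold genes that rose and genes that fell, and the filters change which of the low genes count. Over 390 values of single collagen genes, 379 kept direction and call, 7 gained a call (COL14A1 in 5 settings, COL13A1 and COL17A1 in 1 each) and 4 lost it (COL23A1). None changed sign. COL19A1 and COL8A2 were not tested at an average of 50 or more counts. Low counts limit COL19A1, COL11A2 and the 11 untested genes.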
